A study of Mus musculus with 6 samples.

Results

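The translation initiation and elongation factors were the gene symbols beginning with Eif or Eef and a number that held at least 10 counts summed over the 6 libraries. They were chosen by this sum of counts over both genotypes, and the difference between the genotypes did not enter it. The rule took 69 of 34590 gene symbols. In all, 71 symbols matched the name pattern: the lowest member, Eif5al3-ps, had 31 summed counts, and Eif4e1b with 2 and Eif2c5 with 1 fell outside. Of the 69 members, 61 were factors or their direct regulators, 4 were Argonaute genes listed under older Eif2c symbols (Eif2c1 to Eif2c4, now Ago1 to Ago4), which bind small RNAs and are not initiation factors, and 4 were pseudogenes.

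RNA was measured in skin of 3 Tnip1-/- mice and 3 Tnip1+/+ mice, all of the C57BL/6 strain and all given imiquimod on the skin surface over 2 days. Imiquimod activates Toll-like receptor 7 and inflames mouse skin, and Tnip1 encodes a ubiquitin-binding inhibitor of NF-kB signalling. The deleted part of Tnip1, the sex and the age of the mice are not given in the labels, and untreated skin was not analysed here. The submitters' library names belonged to one name series in Tnip1-/- and another in Tnip1+/+, so any step shared within a name series cannot be told apart from genotype.

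Translation of most mRNAs starts when eIF2 brings the initiator tRNA to the small ribosomal subunit, the eIF4 factors recruit that subunit to the mRNA cap, and eIF3 holds the assembly together. The eIF5 and eIF6 factors then act on start-site selection and the joining of the large subunit, and the eEF factors carry the ribosome along the message. Growing and dividing cells raise this machinery, while phosphorylation of eIF2 by its kinases and binding of eIF4E by the 4E-binding proteins hold it back.

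Gene counts summed to between 19529970 and 25864730 in the Tnip1-/- libraries and between 24701074 and 31005554 in the Tnip1+/+ libraries. Levels are given as CPM, counts scaled to library size, with TMM factors (edgeR's trimmed mean of M values), and a gene was called when its adjusted p was under 0.05 in edgeR's quasi-likelihood test over all 16691 genes that passed the filter on low counts. Of these genes, 22.3% were called higher and 22.7% lower in Tnip1-/- skin, and the median log2 fold change of all of them was -0.036. Tnip1 itself had 47, 37 and 35 counts in Tnip1-/- skin, against 938, 739 and 703 counts in Tnip1+/+ skin (log2 fold change -3.87 ± 0.16 (SE), adjusted p = 5.87e-05). The libraries held skin, since the 7 keratinocyte markers summed to 19059 to 21906 CPM in Tnip1-/- skin and 6513 to 10541 CPM in Tnip1+/+ skin. Muscle and fat were also present: the 10 skeletal muscle markers summed to 3374 to 4999.8 CPM in Tnip1-/- skin and 10092 to 17942 CPM in Tnip1+/+ skin, with 9 of 10 lower, and the 7 adipocyte markers to 72.9 to 1281 CPM in Tnip1-/- skin and 1979 to 3834 CPM in Tnip1+/+ skin, with 2 of 7 lower. That count was 4 without Tnip1-/- replicate 2, 1 without Tnip1+/+ replicates 1 or 3, and 0 without Tnip1-/- replicate 3 or Tnip1+/+ replicate 2. Tnip1-/- replicate 2 stood apart with the lowest fat level, 72.9 CPM. A score of the muscle and fat markers (their mean log2 CPM, centred) was -0.12, -3.09 and -0.27 in Tnip1-/- skin, against 0.69, 1.72 and 1.08 in Tnip1+/+ skin. The neutrophil list summed to 7377 to 12022 CPM in Tnip1-/- skin and 27.7 to 163 CPM in Tnip1+/+ skin, and all 6 of its 9 genes that passed the filter were higher. S100a8 and S100a9 made up most of this sum, with means of 4232 and 5574 CPM in Tnip1-/- skin and 34.7 and 38.5 CPM in Tnip1+/+ skin. Csf3r averaged 44.0 CPM in Tnip1-/- skin and 8.95 CPM in Tnip1+/+ skin, and Cxcr2 39.4 and 4.67 CPM. The macrophage list summed to 1854 to 2216 CPM in Tnip1-/- skin and 962 to 1353 CPM in Tnip1+/+ skin, with 3 of 6 higher. The macrophage count was 4 without Tnip1+/+ replicate 2 and 2 without any other 1 library. The T cell list summed to 10.9 to 14.6 CPM in Tnip1-/- skin and 13.7 to 21.4 CPM in Tnip1+/+ skin, with 2 of 5 lower, a count of 0 without Tnip1-/- replicates 1 or 3 or Tnip1+/+ replicates 2 or 3. The sebaceous gland list summed to 173 to 499.9 CPM in Tnip1-/- skin and 428 to 752 CPM in Tnip1+/+ skin, with 3 of 6 lower, and the Schwann cell and neuron list to 87.1 to 97.8 CPM in Tnip1-/- skin and 110.4 to 142 CPM in Tnip1+/+ skin, with 1 higher and 3 lower of 5 tested. No gene of these lists was at 0 in every library. In bulk skin, fewer cells of a type and less RNA per cell cannot be told apart, and the part of tissue makeup in the results was not tested beyond the fits with the muscle and fat score that follow.

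Most translation factors that differed were higher in Tnip1-/- skin. Of 68 members tested, 37 rose, 7 fell and 24 did not pass, against 45.1% of all genes called in either direction, 22.3% called higher and 22.7% called lower. Their median log2 fold change was 0.43. Without the Argonaute genes and the pseudogenes, 35 of 61 members rose and 5 fell, with a median of 0.45. The values of the 3 libraries of one genotype did not overlap those of the other in 49 members, against 59.8% of all genes tested. Beside the called members, the 8 proliferation genes summed to 871 to 1379.8 CPM in Tnip1-/- skin and 305 to 844 CPM in Tnip1+/+ skin, with 6 of 8 higher. That count was 2 without Tnip1-/- replicate 3 or Tnip1+/+ replicate 1, and 3 without Tnip1-/- replicates 1 or 2 or Tnip1+/+ replicate 2. It rose to 8 without Tnip1+/+ replicate 3. Of the 7 keratinocyte markers 4 were higher and 1 lower, with 2 lower without Tnip1-/- replicate 2 and 0 lower without Tnip1-/- replicates 1 or 3 or Tnip1+/+ replicates 1 or 3. The part of these lists, and of the neutrophil, macrophage, T cell, sebaceous, Schwann cell and neuron lists, in the members' change was not tested. The 4 complexes named by the rule had medians between 0.37 and 0.50. With library totals in place of TMM, which moved the median of all genes by -0.15, 26 members were higher and 12 lower. The distance of the members' median from that of all genes was 0.46 with library totals and 0.47 with TMM. A change of scaling shifts all genes by nearly the same amount, so this distance had to stay and is no support for the counts. Library totals ended the calls of Eif2b2, Eif2d, Eif2s2, Eif3c, Eif3f, Eif3j, Eif3k, Eif4a-ps4, Eif4ebp1, Eif4g2 and Eif5. With library totals Eif2a, Eif2c3, Eif3h, Eif4enif1 and Eif4g3 were called lower. With the muscle and fat score as a covariate, 11 members stayed called higher and 2 lower, and all 37 and 7 kept their direction. The 11 were Eef1e1, Eef1g, Eif1a, Eif2b5, Eif2s1, Eif3i, Eif3m, Eif4a1, Eif4h, Eif5a and Eif6, and the 2 were Eif2ak2 and Eif2c4. With the score and without Tnip1-/- replicate 2, edgeR called 0 members and 40 genes in all, on 2 residual degrees of freedom. Of the members, 19 had an unadjusted p under 0.05. In that fit 35 of the 37 and 5 of the 7 kept their direction, and Eif3b (-0.057), Eif4a-ps4 (-0.16), Eef1a2 (0.39) and Eif5b (0.22) changed sign. No other library was left out of a fit with the score, so reliance on Tnip1-/- replicate 2 and lost power cannot be told apart. Every call with the score given below has this limit. With a Y-linked covariate (the log2 level of Ddx3y, Kdm5d and Uty together), 33 members were higher and 5 lower.

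**Figure D1:**
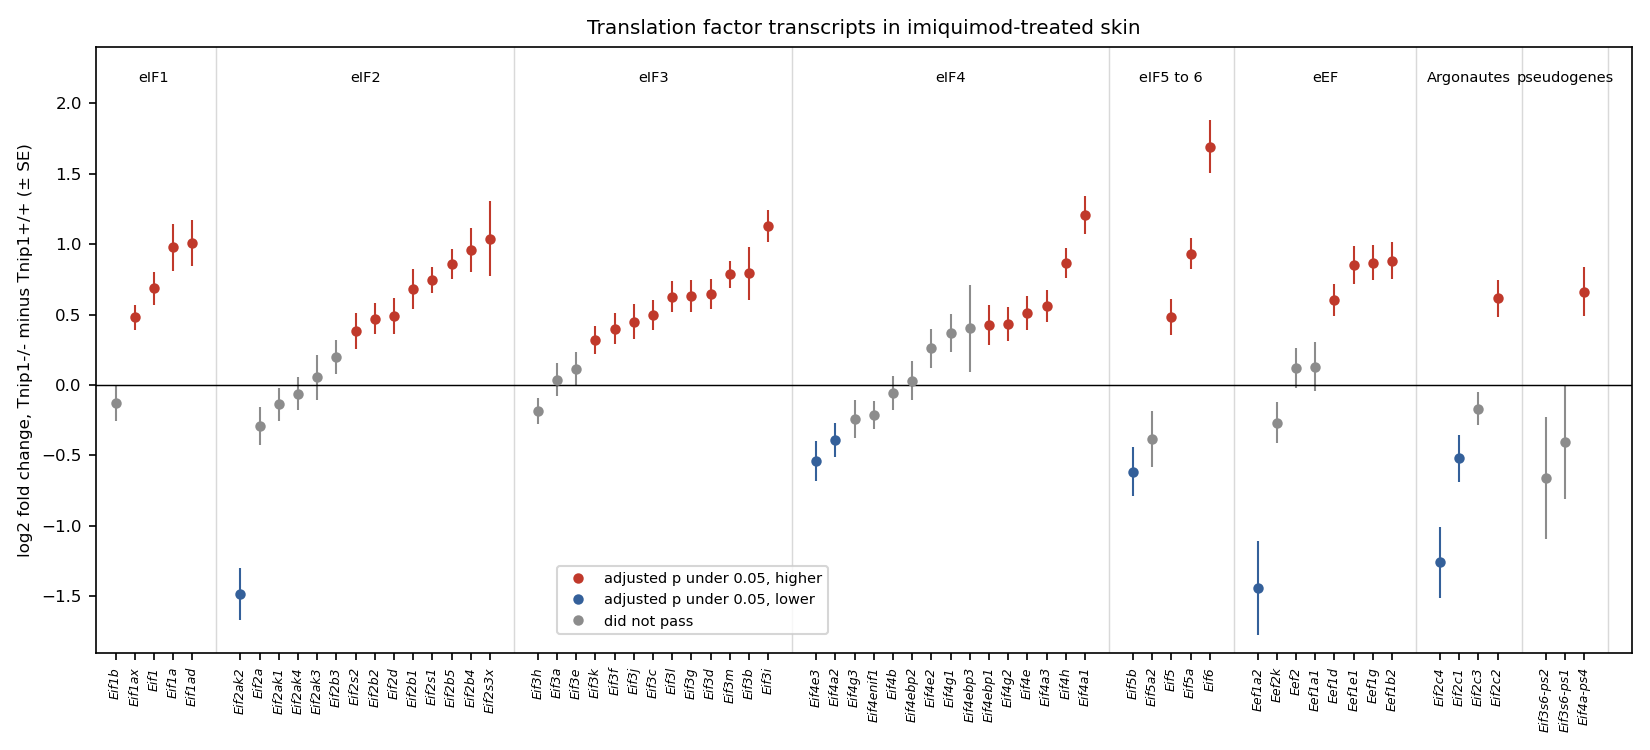
Log2 fold change (Tnip1-/- minus Tnip1+/+, y axis, ± SE) of 67 of the 68 tested members, ordered within each complex (x axis), with genes at adjusted p under 0.05 in red (higher) or blue (lower). Eif2s3y, which split the libraries within each genotype, is left out; Eif6 stands highest at 1.69 and Eif2ak2 lowest at -1.48.

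As a share of all gene counts, without TMM, the members took 1.47%, 1.57% and 1.63% in Tnip1-/- skin, against 1.43%, 1.29% and 1.49% in Tnip1+/+ skin. These shares overlapped. Without Eef1a1, which carries aminoacyl-tRNA to the ribosome, the shares were 0.987%, 1.03% and 1.04% in Tnip1-/- skin, against 0.874%, 0.788% and 0.906% in Tnip1+/+ skin, and they no longer overlapped.

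Start-codon selection by the small ribosomal subunit depends on eIF1 and eIF1A. Here 4 of the 5 genes of this group rose, against 22.3% of all genes, with a group median log2 fold change of 0.69. Eif1, which guards against initiation at the wrong codon, had 116, 109 and 102 CPM in Tnip1-/- skin, against 74.3, 68.4 and 60.3 CPM in Tnip1+/+ skin (log2 fold change 0.69 ± 0.12 (SE), adjusted p = 0.00455). Eif1a, an eIF1A gene, had 163, 123 and 114 CPM in Tnip1-/- skin, against 67.3, 75.6 and 60.5 CPM in Tnip1+/+ skin (log2 fold change 0.98 ± 0.16 (SE), adjusted p = 0.00435), and its close X-linked copy Eif1ax rose by 0.48 ± 0.089 (SE) on the log2 scale. Eif1ad, an eIF1A domain protein, had 53.1, 56.4 and 57.3 CPM in Tnip1-/- skin, against 33.2, 21.7 and 28.1 CPM in Tnip1+/+ skin (log2 fold change 1.01 ± 0.16 (SE), adjusted p = 0.00396). In all 4 the libraries of the genotypes stood apart, as they did in 59.8% of all genes tested. Reads of Eif1a and Eif1ax can be exchanged, so the size of each is uncertain. Eif1b, at -0.13, did not pass (adjusted p = 0.423).

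Of the 15 genes around eIF2, 8 rose and 1 fell, against 22.3% and 22.7% of all genes, and the median was 0.47. The genes that rose included 3 of the 4 subunit genes and 4 of the 5 exchange factor genes, and the sole gene that fell was a kinase that inactivates eIF2. The summed level of the 4 subunit genes was 530.4, 540.4 and 526 CPM in Tnip1-/- skin, against 323, 326 and 302 CPM in Tnip1+/+ skin.

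The alpha subunit Eif2s1, whose phosphorylation stops the recycling of eIF2, had 156, 146 and 147 CPM in Tnip1-/- skin, against 85.8, 90.2 and 92.5 CPM in Tnip1+/+ skin. Every Tnip1-/- library was higher than every Tnip1+/+ library (log2 fold change 0.74 ± 0.093 (SE), adjusted p = 0.00171). Eif2s2, the beta subunit, rose by 0.39 ± 0.13 (SE) on the log2 scale (adjusted p = 0.0443), a call that ended, at 0.31 to 0.42 (adjusted p = 0.0813 to 0.108), when any 1 library other than Tnip1+/+ replicate 2 was left out.

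The gamma subunit has an X-linked gene, Eif2s3x, and a Y-linked gene, Eif2s3y. Eif2s3y had 1761, 2101 and 1 counts in Tnip1-/- skin, against 2677, 27 and 3 counts in Tnip1+/+ skin, so it was high in Tnip1-/- replicates 1 and 2 and Tnip1+/+ replicate 1 and low in the other 3 (log2 fold change 1.02 ± 2.005 (SE), adjusted p = 0.698). Xist, the RNA of the inactive X chromosome, ran the other way, at 483 CPM in Tnip1-/- replicate 3 and 698 and 780.03 CPM in Tnip1+/+ replicates 2 and 3, and at most 0.345 CPM in the remaining libraries. By these genes Tnip1-/- replicates 1 and 2 and Tnip1+/+ replicate 1 had the pattern of males, and the other 3 that of females. The sexes were thus not balanced between the genotypes. Eif2s3x had 157, 153 and 234 CPM in Tnip1-/- skin, against 58.5, 104 and 102 CPM in Tnip1+/+ skin (log2 fold change 1.04 ± 0.27 (SE), adjusted p = 0.0184). Among the libraries high in Eif2s3y it stood at 157 and 153 CPM in Tnip1-/- skin and 58.5 CPM in Tnip1+/+ skin, and among those high in Xist at 234 CPM in Tnip1-/- skin and 104 and 102 CPM in Tnip1+/+ skin. Its call ended without Tnip1-/- replicate 3, at 0.82 (adjusted p = 0.0523).

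The exchange factor eIF2B, which reloads eIF2 with GTP, rose in 4 of its 5 subunits, and its summed level was 222, 203 and 198 CPM in Tnip1-/- skin, against 129.6, 118 and 131 CPM in Tnip1+/+ skin. Eif2b5, the catalytic subunit, had 81.7, 79.2 and 87.3 CPM in Tnip1-/- skin, against 48.3, 42.0 and 46.5 CPM in Tnip1+/+ skin (log2 fold change 0.86 ± 0.11 (SE), adjusted p = 0.00158). Eif2b4 had 49.3, 43.7 and 34.7 CPM in Tnip1-/- skin, against 21.9, 19.9 and 23.8 CPM in Tnip1+/+ skin (log2 fold change 0.96 ± 0.16 (SE), adjusted p = 0.00388), and Eif2b1 had 41.8, 35.8 and 31.2 CPM in Tnip1-/- skin, against 24.4, 20.5 and 23.0 CPM in Tnip1+/+ skin (log2 fold change 0.68 ± 0.14 (SE), adjusted p = 0.00925); both are regulatory subunits. The genotypes did not overlap in any of the 5 subunits, including Eif2b3, which did not pass (log2 fold change 0.20 ± 0.12 (SE), adjusted p = 0.216). Of all genes tested, 59.8% did not overlap.

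The 4 kinases that phosphorylate eIF2 alpha answer to different stresses. Eif2ak2 (PKR), which senses double-stranded RNA and is induced by interferon, had 39.0, 35.0 and 43.1 CPM in Tnip1-/- skin, against 134, 109 and 84.1 CPM in Tnip1+/+ skin (log2 fold change -1.48 ± 0.19 (SE), adjusted p = 0.00168). It was lower in every Tnip1-/- library and kept its call with the muscle and fat score, at -1.37 (adjusted p = 0.0341). Beside it, 11 other interferon-inducible genes summed to 227 to 292 CPM in Tnip1-/- skin and 891 to 1446 CPM in Tnip1+/+ skin, and all 11 fell, with a median log2 fold change of -2.40; their part in the level of Eif2ak2 was not tested.

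The remaining kinases did not pass and overlapped between genotypes. Eif2ak1 (HRI), the heme-regulated kinase, had 27.8, 26.9 and 25.4 CPM in Tnip1-/- skin, against 28.8, 32.7 and 26.7 CPM in Tnip1+/+ skin (log2 fold change -0.14 ± 0.12 (SE), adjusted p = 0.368). Eif2ak3 (PERK), the kinase of endoplasmic reticulum stress, had 30.3, 30.3 and 27.5 CPM in Tnip1-/- skin, against 34.7, 24.1 and 26.2 CPM in Tnip1+/+ skin (log2 fold change 0.053 ± 0.16 (SE), adjusted p = 0.798). Eif2ak4 (GCN2), which senses uncharged tRNA, had 12.8, 12.2 and 12.7 CPM in Tnip1-/- skin, against 12.6, 12.9 and 13.8 CPM in Tnip1+/+ skin (log2 fold change -0.061 ± 0.12 (SE), adjusted p = 0.693). Since Eif2s1 was higher and Eif2ak2 lower in every Tnip1-/- library, the ratio of these transcripts had to separate the genotypes. Eif2s1 held 3.997, 4.18 and 3.42 counts per Eif2ak2 count in Tnip1-/- skin, against 0.641, 0.825 and 1.10 in Tnip1+/+ skin, without correction for length.

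**Figure D2:**
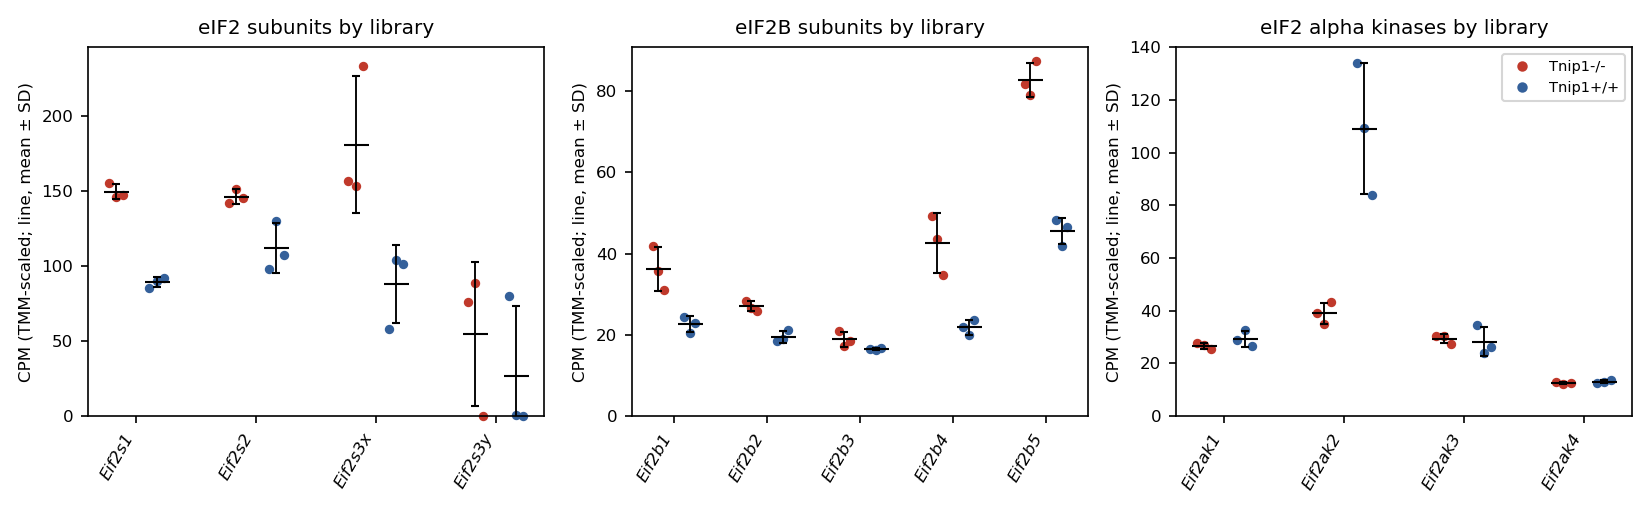
TMM-scaled CPM (y axes) of eIF2 genes in each library, with Tnip1-/- points (red) left of Tnip1+/+ points (blue) and lines at the mean ± SD of 3. Eif2s1 and Eif2b5 are higher in all 3 Tnip1-/- libraries, Eif2ak2 lies at or under 43.1 CPM in Tnip1-/- skin and at or over 84.1 CPM in Tnip1+/+ skin, and Eif2s3y splits the libraries across genotypes.

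Because Eif2ak2 fell while 8 other eIF2 genes rose, its start region is shown from the RefSeq promoter table (build GRCm38.p6), at chr17:78882535-78882564 on the minus strand, 9 to 38 bases after the listed start. Capitals mark the core of the interferon-stimulated response element, GAAA repeated after any 2 bases, searched on both strands in windows of 250 bases before to 50 bases after each start.
Eif2ak2 start region: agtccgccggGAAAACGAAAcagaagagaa
The motif was present in 3.44% of all 32851 windows and in 4 of the 68 windows of the 52 members found in the table. The other 3 belonged to Eif2s1 and Eif2s3x, which rose, and Eif3a, which did not pass.

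Outside the main eIF2 pathway, Eif2d, which handles initiator tRNA without GTP and acts in ribosome recycling, rose by 0.49 ± 0.13 (SE) on the log2 scale (adjusted p = 0.0195). The call ended without Tnip1-/- replicate 2, at 0.51, and without Tnip1-/- replicate 3, at 0.48. Eif2a, a separate tRNA-binding factor, was at -0.29 (adjusted p = 0.118) and was called lower without Tnip1+/+ replicate 1, at -0.39.

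The eIF3 complex is the scaffold between the small subunit and eIF4G. Of its 13 subunit genes 10 rose and 3 did not pass, against 22.3% of all genes called higher, and the median log2 fold change was 0.50. The summed level was 2047, 2055 and 1997 CPM in Tnip1-/- skin, against 1520.3, 1522 and 1570.1 CPM in Tnip1+/+ skin, with no overlap between genotypes. With library totals alone, 6 rose and 1 fell, and with the muscle and fat score 2 stayed called higher.

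Eif3i, a subunit of the module that also holds Eif3b and Eif3g, rose most: it had 165, 169 and 175 CPM in Tnip1-/- skin, against 82.5, 67.7 and 82.3 CPM in Tnip1+/+ skin (log2 fold change 1.13 ± 0.11 (SE), adjusted p = 0.000887). Eif3m had 134, 145 and 149 CPM in Tnip1-/- skin, against 80.9, 84.2 and 83.2 CPM in Tnip1+/+ skin (log2 fold change 0.79 ± 0.095 (SE), adjusted p = 0.00150), and it and Eif3i were the subunits still called with the muscle and fat score, at 0.77 (adjusted p = 0.0322) and 1.07 (adjusted p = 0.0208). In both genes the lowest Tnip1-/- library stood well above the highest Tnip1+/+ library. Eif3d, a subunit that can itself bind the mRNA cap, had 132, 121 and 117 CPM in Tnip1-/- skin, against 78.5, 73.1 and 84.8 CPM in Tnip1+/+ skin (log2 fold change 0.64 ± 0.11 (SE), adjusted p = 0.00405).

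The subunits did not move as a block. Eif3a, the largest subunit and the backbone of the complex, had 353, 338 and 306 CPM in Tnip1-/- skin, against 302, 340.3 and 329.8 CPM in Tnip1+/+ skin, and the genotypes overlapped (log2 fold change 0.036 ± 0.12 (SE), adjusted p = 0.814). Eif3e had 188, 205 and 195 CPM in Tnip1-/- skin, against 163, 201 and 178 CPM in Tnip1+/+ skin (log2 fold change 0.12 ± 0.12 (SE), adjusted p = 0.442), while Eif3h had 119.8, 127 and 125 CPM in Tnip1-/- skin, against 134, 146 and 143 CPM in Tnip1+/+ skin (log2 fold change -0.18 ± 0.094 (SE), adjusted p = 0.147). All 3 Tnip1-/- libraries thus lay under all 3 Tnip1+/+ libraries for Eif3h, which did not pass.

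Among the smaller increases, the call of Eif3f (0.40) ended without any 1 of the 3 Tnip1-/- replicates, at 0.41 each time. That of Eif3j (0.45), a loosely held subunit, ended without Tnip1-/- replicates 1 or 2 or Tnip1+/+ replicates 1 or 3, at 0.40 to 0.45 (adjusted p = 0.0540 to 0.0645). That of Eif3k (0.32) ended, at 0.30 to 0.35 (adjusted p = 0.0666 to 0.106), without any 1 library other than Tnip1+/+ replicate 2. Eif3b, Eif3c, Eif3g and Eif3l rose by 0.79, 0.50, 0.63 and 0.63 and kept the call whichever library was left out.

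**Figure D3:**
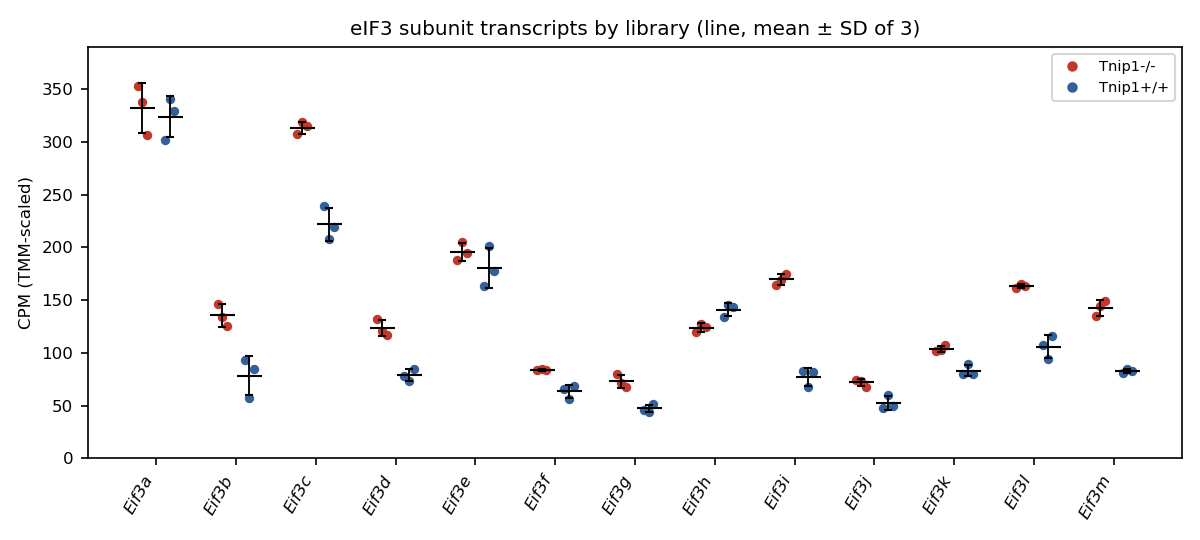
TMM-scaled CPM (y axes) of eIF3 subunit genes in each library, Tnip1-/- (red) left and Tnip1+/+ (blue) right, with lines at the mean ± SD of 3. The groups stand apart for Eif3i and Eif3m, overlap for Eif3a and Eif3e, and are turned round for Eif3h.

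The eIF4 factors bind the cap and unwind the mRNA. Of 15 genes 6 rose and 2 fell, against 22.3% and 22.7% of all genes, with a median log2 fold change of 0.37. The summed level of the 15 was 3334, 3184 and 3102 CPM in Tnip1-/- skin, against 2398, 2309.7 and 2432 CPM in Tnip1+/+ skin. The helicase paralogs moved in opposite directions.

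Eif4a1, the main RNA helicase of the cap complex, had 834, 788 and 778 CPM in Tnip1-/- skin, against 364, 301 and 374 CPM in Tnip1+/+ skin (log2 fold change 1.21 ± 0.14 (SE), adjusted p = 0.00124), and it was still called with the muscle and fat score, at 1.18 (adjusted p = 0.0257). Eif4a2, its paralog, had 248, 234 and 225 CPM in Tnip1-/- skin, against 290.4, 347 and 289.6 CPM in Tnip1+/+ skin (log2 fold change -0.39 ± 0.12 (SE), adjusted p = 0.0361). The groups did not overlap in either gene, although the call of Eif4a2 ended, at -0.42 to -0.30 (adjusted p = 0.0564 to 0.126), when any 1 library other than Tnip1+/+ replicate 1 was left out. With the muscle and fat score Eif4a2 was at -0.32 (adjusted p = 0.321), no longer called. The share of Eif4a2 in the counts of both was 22.9%, 22.9% and 22.4% in Tnip1-/- skin, against 44.4%, 53.5% and 43.6% in Tnip1+/+ skin, and with counts divided by merged exon length the mean share was 19.3% in Tnip1-/- skin and 42.1% in Tnip1+/+ skin. That the share was lower in every Tnip1-/- library follows from the opposite directions of Eif4a1 and Eif4a2. Eif4a3, a helicase of the exon junction complex, rose by 0.56 ± 0.12 (SE) on the log2 scale (adjusted p = 0.00869). Reads of Eif4a1 may be shared with its pseudogene Eif4a-ps4, which was also called higher (log2 fold change 0.66 ± 0.18 (SE), adjusted p = 0.0209) and lost that call, at 0.65 to 0.69 (adjusted p = 0.0507 to 0.0586), without any 1 of the Tnip1-/- replicates.

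**Figure D4:**
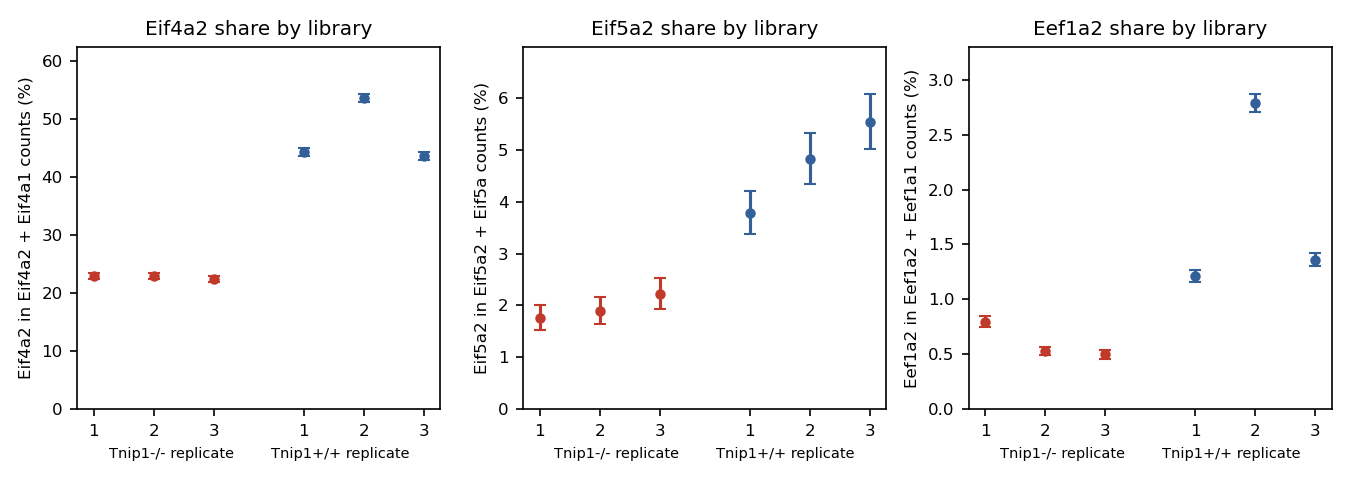
Share of one paralog in the summed counts of its set (y axis, percent) in each library, Tnip1-/- (red) left and Tnip1+/+ (blue) right, with exact 95% binomial intervals that cover counting error only. Eif4a2 averaged 22.7% ± 0.294 in Tnip1-/- skin and 47.2% ± 5.53 in Tnip1+/+ skin (SD, n = 3 each), without overlap.

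Eif4h, a cofactor that stimulates the helicase, had 250.4, 245 and 261 CPM in Tnip1-/- skin, against 144, 128 and 143 CPM in Tnip1+/+ skin (log2 fold change 0.87 ± 0.10 (SE), adjusted p = 0.00151). Eif4b, which also stimulates the helicase, did not pass, with 329.8, 336 and 344 CPM in Tnip1-/- skin, against 339.97, 320.4 and 390.1 CPM in Tnip1+/+ skin (log2 fold change -0.057 ± 0.12 (SE), adjusted p = 0.716). Eif4h kept its call with the muscle and fat score, at 0.87 (adjusted p = 0.0290).

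The cap-binding protein gene Eif4e had 109.8, 113 and 108 CPM in Tnip1-/- skin, against 68.3, 88.5 and 75.1 CPM in Tnip1+/+ skin (log2 fold change 0.51 ± 0.12 (SE), adjusted p = 0.0137), and its groups did not overlap. Eif4e3, a cap-binding relative, fell, with 17.8, 17.4 and 19.4 CPM in Tnip1-/- skin, against 25.2, 31.0 and 23.2 CPM in Tnip1+/+ skin (log2 fold change -0.54 ± 0.14 (SE), adjusted p = 0.0201). Its call ended without Tnip1-/- replicate 1, at -0.52, and without Tnip1-/- replicate 2, at -0.49. With the muscle and fat score Eif4e3 was at -0.40 (adjusted p = 0.281), no longer called. Eif4e2, a cap-binding repressor of translation, was at 0.26 (adjusted p = 0.158) and was called higher without Tnip1+/+ replicate 2, at 0.38.

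Of the 3 scaffold genes, Eif4g2, which lacks the eIF4E-binding site, had 754, 724 and 653 CPM in Tnip1-/- skin, against 523, 527 and 528 CPM in Tnip1+/+ skin (log2 fold change 0.43 ± 0.12 (SE), adjusted p = 0.0249). Without Tnip1-/- replicates 1 or 2 or Tnip1+/+ replicate 3 its call ended, at 0.40 to 0.45 (adjusted p = 0.0600 to 0.0790). Eif4g1, the main scaffold, had 496, 472 and 454 CPM in Tnip1-/- skin, against 406, 316 and 381 CPM in Tnip1+/+ skin, without overlap (log2 fold change 0.37 ± 0.14 (SE), adjusted p = 0.0619). It was called higher without Tnip1+/+ replicate 1, at 0.46, and by DESeq2 and limma voom. Eif4g3 had 55.5, 50.5 and 50.5 CPM in Tnip1-/- skin, against 58.3, 72.5 and 54.7 CPM in Tnip1+/+ skin (log2 fold change -0.24 ± 0.13 (SE), adjusted p = 0.173), and its groups overlapped.

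The 4E-binding proteins sequester eIF4E until mTORC1 phosphorylates them. Eif4ebp1 had 64.7, 47.3 and 53.7 CPM in Tnip1-/- skin, against 43.7, 40.5 and 39.1 CPM in Tnip1+/+ skin (log2 fold change 0.43 ± 0.14 (SE), adjusted p = 0.0427), a call that ended, at 0.30 to 0.49 (adjusted p = 0.0571 to 0.119), without any 1 library other than Tnip1-/- replicate 2. Eif4ebp2 had 11.5, 11.6 and 12.7 CPM in Tnip1-/- skin, against 12.9, 10.4 and 11.6 CPM in Tnip1+/+ skin (log2 fold change 0.031 ± 0.14 (SE), adjusted p = 0.868). Eif4ebp3 was barely detected, with 17, 17 and 9 counts in Tnip1-/- skin, against 18, 15 and 11 counts in Tnip1+/+ skin (log2 fold change 0.40 ± 0.31 (SE), adjusted p = 0.315). Eif4ebp1 made up most of the counts of the 3 genes in both genotypes, 81.3% ± 2.50 in Tnip1-/- skin and 77.2% ± 1.31 in Tnip1+/+ skin (SD, n = 3 each). Eif4enif1, which carries eIF4E into the nucleus, had no overlap between genotypes but did not pass (log2 fold change -0.21 ± 0.10 (SE), adjusted p = 0.122).

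Start regions are shown for Eif4a1, Eif4e, Eif4h and Eif5a, 4 of the 6 members that rose and whose windows hold CACGTG. The others, not shown, were Eif3f and Eif3k. CACGTG, marked in capitals, is the E-box bound by MYC among other factors. The sequences are from the RefSeq promoter table (GRCm38.p6) and end 1 base before the listed start: 200 bases at chr11:69672424-69672623 (minus strand) for Eif4a1, and 100 bases each at chr3:138527168-138527267 (plus strand) for Eif4e, chr5:134639410-134639509 (minus strand) for Eif4h and chr11:69921387-69921486 (minus strand) for Eif5a.
Eif4a1: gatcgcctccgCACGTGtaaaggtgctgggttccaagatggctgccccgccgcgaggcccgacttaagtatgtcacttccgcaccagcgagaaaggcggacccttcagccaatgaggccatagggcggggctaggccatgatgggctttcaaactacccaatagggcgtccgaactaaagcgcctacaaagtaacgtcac
Eif4e: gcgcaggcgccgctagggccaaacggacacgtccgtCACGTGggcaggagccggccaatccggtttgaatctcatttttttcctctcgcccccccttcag
Eif4h: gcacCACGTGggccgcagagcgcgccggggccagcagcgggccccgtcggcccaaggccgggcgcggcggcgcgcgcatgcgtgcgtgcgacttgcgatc
Eif5a: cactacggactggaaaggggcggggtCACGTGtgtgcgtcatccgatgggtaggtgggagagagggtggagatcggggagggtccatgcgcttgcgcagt
CACGTG reads the same on both strands and was present in 7.15% of all 32851 windows and in 14 of the 68 members' windows (20.6%), which came from 12 members. All 4 motifs were searched on both strands. For each, the windows of all genes were neither limited to expressed genes nor matched to the members. Some windows of 1 gene overlap, as for Eif5a. The motif did not separate the members that rose: 6 of the 12 members with it were higher and none of these was lower, against 22 higher and 6 lower of 40 tested members with a window and no match. The further motifs searched were GGG and TTTCC parted by any 2 bases, a form of the NF-kB site, found in 1.63% of all windows and 1 member window, and TGATG and AA parted by any 1 base, a form of the ATF4 and C/EBP element, found in 3.97% of all windows and 2 member windows.

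Among the factors of late initiation, 3 of 5 rose and 1 fell, against 22.3% and 22.7% of all genes. Eif6, which keeps the large subunit from joining too early and is needed for its assembly, had the largest increase of all members, with 194, 164 and 151 CPM in Tnip1-/- skin, against 65.9, 42.2 and 49.2 CPM in Tnip1+/+ skin (log2 fold change 1.69 ± 0.19 (SE), adjusted p = 0.00122). Averages were 169.6 ± 21.8 CPM in Tnip1-/- skin and 52.4 ± 12.1 CPM in Tnip1+/+ skin (SD, n = 3 each), and the call stood with the muscle and fat score at 1.64 (adjusted p = 0.0210). Per kilobase of merged exons its level was 62.8 CPM per kilobase in Tnip1-/- skin and 19.4 in Tnip1+/+ skin, which gave it rank 13 among the members in Tnip1-/- skin and rank 30 in Tnip1+/+ skin.

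Eif5a, the hypusine-bearing factor that helps ribosomes past difficult peptide bonds, had 504, 450.3 and 492 CPM in Tnip1-/- skin, against 251, 247 and 260.4 CPM in Tnip1+/+ skin (log2 fold change 0.93 ± 0.11 (SE), adjusted p = 0.00145). Its paralog Eif5a2 had 9.01, 8.68 and 11.2 CPM in Tnip1-/- skin, against 9.84, 12.5 and 15.3 CPM in Tnip1+/+ skin (log2 fold change -0.38 ± 0.20 (SE), adjusted p = 0.156), with overlap. The share of Eif5a2 in the counts of both was 1.76%, 1.89% and 2.22% in Tnip1-/- skin, against 3.78%, 4.82% and 5.53% in Tnip1+/+ skin. Eif5, which triggers GTP hydrolysis on eIF2, rose by 0.48 ± 0.13 (SE) on the log2 scale (adjusted p = 0.0221), and its call ended without Tnip1-/- replicates 1 or 2 or Tnip1+/+ replicates 1 or 3, at 0.44 to 0.46 (adjusted p = 0.0531 to 0.0652).

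Eif5b, the GTPase that joins the subunits, fell, with 74.2, 67.7 and 61.1 CPM in Tnip1-/- skin, against 86.4, 129.8 and 94.8 CPM in Tnip1+/+ skin (log2 fold change -0.62 ± 0.17 (SE), adjusted p = 0.0253). The call ended without Tnip1-/- replicate 2, at -0.60, and without Tnip1-/- replicate 3, at -0.54. With the muscle and fat score Eif5b was at -0.48 (adjusted p = 0.277), no longer called. Eif6 and Eif5b act at the same joining step, and Eif6 held 2.61, 2.42 and 2.48 counts per Eif5b count in Tnip1-/- skin, against 0.763, 0.325 and 0.518 in Tnip1+/+ skin, without correction for length. This ratio had to separate the genotypes, since Eif6 was higher and Eif5b lower in every Tnip1-/- library.

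Of the 8 elongation factor genes 4 rose, 1 fell and 3 did not pass, against 22.3% of all genes called higher and 22.7% called lower. The 4 that rose were those grouped with the exchange factor eEF1B. The eEF1B genes summed to 1022, 991 and 1030.2 CPM in Tnip1-/- skin, against 574, 512 and 629 CPM in Tnip1+/+ skin. Eef1g, a structural subunit, had 477, 451 and 481 CPM in Tnip1-/- skin, against 255, 233 and 284 CPM in Tnip1+/+ skin (log2 fold change 0.87 ± 0.12 (SE), adjusted p = 0.00249). Eef1b2, a catalytic subunit, had 349.7, 367 and 377 CPM in Tnip1-/- skin, against 208, 169 and 216 CPM in Tnip1+/+ skin (log2 fold change 0.88 ± 0.13 (SE), adjusted p = 0.00287). Eef1e1, listed with them by its symbol and known as a member of the multi-tRNA synthetase complex, had 24.6, 20.7 and 19.5 CPM in Tnip1-/- skin, against 11.4, 11.9 and 12.6 CPM in Tnip1+/+ skin (log2 fold change 0.85 ± 0.14 (SE), adjusted p = 0.00359). The fourth, Eef1d, a further exchange subunit, rose by 0.60 ± 0.11 (SE) on the log2 scale (adjusted p = 0.00625). Of these genes, Eef1g and Eef1e1 kept their call with the muscle and fat score, at 0.90 (adjusted p = 0.0381) and 0.94 (adjusted p = 0.0433).

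Eef1a1 was the most abundant member per length in both genotypes, at 2274 CPM per kilobase in Tnip1-/- skin and 2078 in Tnip1+/+ skin. Its CPM values were 5419.8, 5602 and 5984 CPM in Tnip1-/- skin, against 5146, 5033 and 5363 CPM in Tnip1+/+ skin, so every Tnip1-/- library was above every Tnip1+/+ library, but the gene did not pass (log2 fold change 0.13 ± 0.18 (SE), adjusted p = 0.567). With library totals alone its log2 fold change was -0.025. Eef2, which moves the ribosome by 1 codon and stood second per length in both genotypes, had 1659, 1608 and 1789 CPM in Tnip1-/- skin, against 1562, 1450.2 and 1640.3 CPM in Tnip1+/+ skin (log2 fold change 0.12 ± 0.14 (SE), adjusted p = 0.516), and was at -0.037 with library totals alone. Eef2k, the kinase that inactivates it, had 51.3, 64.9 and 62.8 CPM in Tnip1-/- skin, against 77.2, 61.2 and 77.2 CPM in Tnip1+/+ skin (log2 fold change -0.27 ± 0.14 (SE), adjusted p = 0.167).

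Eef1a2, the form of eEF1A found in skeletal muscle, heart and neurons, fell, with 43.6, 29.8 and 29.98 CPM in Tnip1-/- skin, against 63.1, 144 and 74.0 CPM in Tnip1+/+ skin (log2 fold change -1.44 ± 0.33 (SE), adjusted p = 0.0127). Its libraries did not overlap, and Tnip1+/+ replicate 2 stood far above the other libraries. Skeletal muscle markers were also lower in Tnip1-/- skin, at 3374 to 4999.8 CPM in Tnip1-/- skin and 10092 to 17942 CPM in Tnip1+/+ skin, and with the muscle and fat score Eef1a2 was at -0.93 (adjusted p = 0.234), no longer called. With the score and without Tnip1-/- replicate 2 it was at 0.39 (adjusted p = 0.617). The share of Eef1a2 in the counts of both eEF1A genes was 0.797%, 0.529% and 0.499% in Tnip1-/- skin, against 1.21%, 2.79% and 1.36% in Tnip1+/+ skin.

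**Figure D5:**
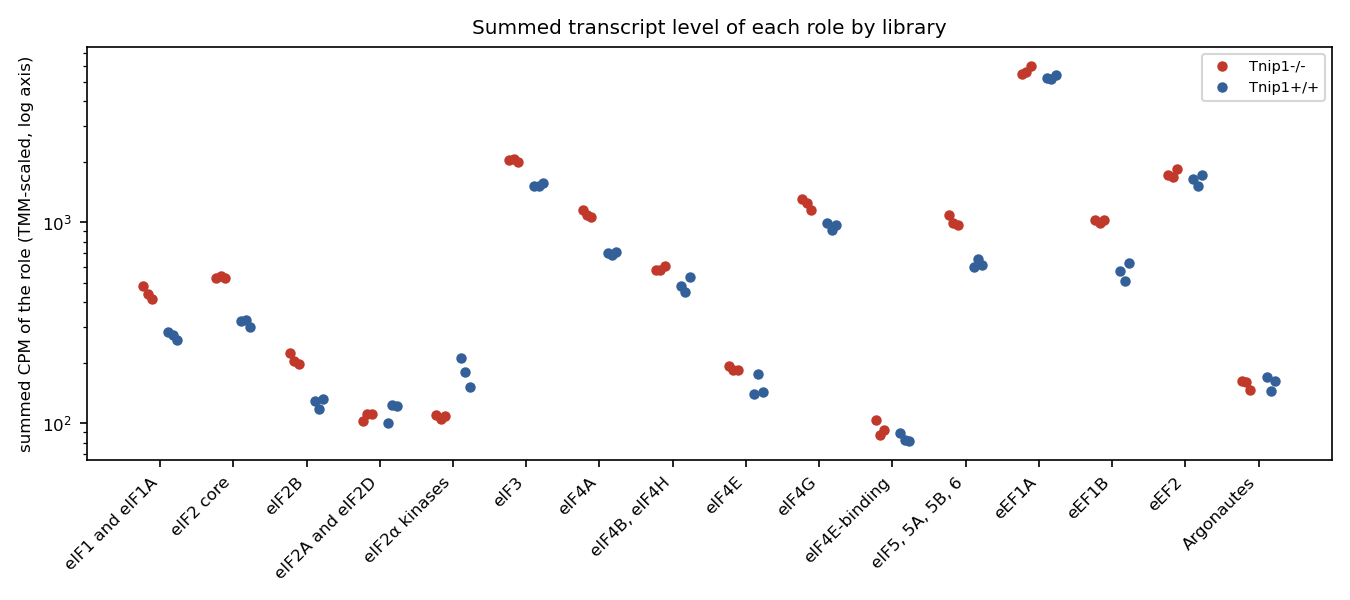
Summed TMM-scaled CPM (log y axis) of the genes of each role in each library (points), Tnip1-/- (red) left and Tnip1+/+ (blue) right. The eIF2 subunits, eIF2B, eIF3, eIF4A and eEF1B sums stand higher in all 3 Tnip1-/- libraries, and the eIF2 kinase sum stands lower.

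The Argonaute genes differed in direction. Eif2c2 (Ago2), the one with slicer activity, had 91.5, 80.7 and 71.2 CPM in Tnip1-/- skin, against 56.2, 48.1 and 54.6 CPM in Tnip1+/+ skin (log2 fold change 0.61 ± 0.13 (SE), adjusted p = 0.00929), and Eif2c4 (Ago4) had 7.02, 11.9 and 11.5 CPM in Tnip1-/- skin, against 29.5, 19.2 and 24.4 CPM in Tnip1+/+ skin (log2 fold change -1.26 ± 0.25 (SE), adjusted p = 0.00740). Eif2c1 (Ago1) fell by 0.52 ± 0.17 (SE) on the log2 scale (adjusted p = 0.0392), a call that ended, at -0.60 to -0.38 (adjusted p = 0.0554 to 0.111), without any 1 library other than Tnip1+/+ replicate 2. Eif2c3 (Ago3), at -0.17, did not pass (adjusted p = 0.267). Their summed level was 163, 161 and 146 CPM in Tnip1-/- skin, against 171, 145 and 162 CPM in Tnip1+/+ skin, with overlap. Of the pseudogenes, Eif3s6-ps1 and Eif3s6-ps2, at -0.40 and -0.66, did not pass, and Eif5al3-ps was under the filter.

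Other genes of the same process were read from lists, beside 22.3% of all genes called higher and 22.7% called lower. Of 9 termination and recycling factors 6 rose and 1 fell, among them Hbs1l (1.09), which rescues stalled ribosomes, the release factor Etf1 (0.66) and Mcts1 (0.75), a recycling factor. The count of 6 was 4 without Tnip1-/- replicate 1 and 5 without any other 1 library. The 1 lower call ended without Tnip1-/- replicate 3. Of 5 hypusination enzymes and accessory helicases 3 rose: Dohh (0.97) and Dhps (0.69), the enzymes that make the hypusine of Eif5a, and the helicase Ddx3x (0.39). The call of Ddx3x ended without any 1 library other than Tnip1+/+ replicate 2, with log2 fold changes of 0.32 to 0.47 over the 6 fits. Of 9 mitochondrial translation factors 2 rose, a share close to that of all genes: the elongation factors Tufm (1.09) and Tsfm (1.502).

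The lists of translation regulators hold both activators and inhibitors, so their counts of rises and falls give no direction of regulation. Of 15 genes of mTORC1, S6 kinase and MNK signalling 2 rose (1 without Tnip1-/- replicate 2) and 3 fell (2 without Tnip1-/- replicates 2 or 3 or Tnip1+/+ replicates 1 or 3). Rps6kb2, an S6 kinase, was at 0.96, Deptor, an mTOR inhibitor, at -0.96, and Pdcd4, an inhibitor of Eif4a1, at -1.04. The other called genes of this list were Rheb (0.43) and Tsc1 (-0.36). Mtor (0.14, adjusted p = 0.371) and Mknk2 (0.11, adjusted p = 0.485) did not pass. Of 14 genes of the integrated stress response, which eIF2 phosphorylation sets off, 5 rose (3 without Tnip1-/- replicate 3) and 3 fell. Asns, asparagine synthetase, was at 1.22, Nupr1 at -1.76 and Chac1, a glutathione-degrading enzyme, at -1.63. Atf4, the central transcription factor of that response, had 167, 167 and 145 CPM in Tnip1-/- skin, against 141, 132 and 119.9 CPM in Tnip1+/+ skin (log2 fold change 0.29 ± 0.11 (SE), adjusted p = 0.0793). Of 6 tested poly(A)-binding proteins and partners 1 fell, Paip2 (-0.61), an inhibitor of poly(A)-binding protein. The selenocysteine factors Eefsec (0.011, adjusted p = 0.951) and Secisbp2 (0.16, adjusted p = 0.287) did not pass.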

How the data were processed

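RNA of skin from 3 Tnip1-/- and 3 Tnip1+/+ mice was sequenced after ribosomal RNA depletion, with stranded, paired-end Illumina libraries, per the labels' protocols. The design text names separate mice, so replicates are animals. The deposited values are counts, whole numbers of reads per gene symbol, 1 file per library. The authors used build mm9, with STAR and BWA, HTSeq, CASAVA 1.7, R 3.2.3 and limma named in the submitters' processing notes. Order of use, annotation and the strand option of the counter: not given in the sources used here. Because of this, reads of overlapping and antisense genes cannot be told apart. Genes with near-identical copies are uncertain for another reason, since their reads can be exchanged. These are Eif1a and Eif1ax, Eif4a1 and Eif4a-ps4, Eif3e and the Eif3s6 pseudogenes, and Eef1a1 and Eif5a with their copies. The 5 summary lines of each file, 26.7% to 28.0% of all lines' counts in Tnip1-/- and 27.6% to 30.3% in Tnip1+/+, were left out.

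Counts were fitted in R 4.3.3 with edgeR 4.0.16 (TMM, filterByExpr, glmQLFit, two-sided glmQLFTest, Benjamini-Hochberg adjustment over 16691 genes). The fit was tested on simulated counts. Of 69 members, 68 passed the filter. A count of 3, taken as the detection limit, equals 0.0900 to 0.157 CPM, for counting error only. Lengths per kilobase are merged exons of a GENCODE annotation of a later build and matched all 69 members by symbol. Genes given in full are the core eIF2, eIF4 and eEF genes and, per role, up to 3 called members with the smallest p. Pathway lists give up to 3 called genes with the smallest p, and the mTORC1 list gives all its called genes. The members and lists were chosen with earlier results of these data known, so no count over them is independent support. Alternatives were other scalings, DESeq2 1.42.0, limma 3.58.1 (voom), robust dispersion, other filters, a replicate block, a muscle and fat score and leaving out each library; a Y-linked covariate, the muscle and fat score without Tnip1-/- replicate 2 and a count without pseudogenes were added after seeing the data.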

Additional observations from a re-analysis of the deposited data

How the results depend on the processing

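All 37 members called higher and all 7 called lower kept their direction in 17 alternatives (the fit with the muscle and fat score and without Tnip1-/- replicate 2 is given apart), and 25 and 3 of them also kept their call in every one of these other than the muscle and fat score. Library totals alone gave 12 members lower, 5 higher and 2 lower in eIF2, 6 higher and 1 lower in eIF3, and 4 lower in eIF4. The muscle and fat score left 11 members higher and 2 lower, with 2 higher in each of eIF2, eIF3, eIF4 and eEF, 0 lower in eIF4 and eEF, and 2179 genes called in all; it takes 1 of few degrees of freedom and moves with genotype, and the cause was not tested. With the score and without Tnip1-/- replicate 2, a fit added after seeing the data, 0 members and 0 genes of eIF2, eIF3, eIF4 and eEF were called in either direction and 40 genes in all, and the log2 fold change was 0.39 for Eef1a2, -0.036 for Eef2, 0.12 for Eif1b, 0.18 for Eif2a, 0.14 for Eif2ak1, -0.58 for Eif2ak3, -5.19 for Eif2s3y, -0.057 for Eif3b, 1.09 for Eif3s6-ps1, 0.39 for Eif3s6-ps2, -0.16 for Eif4a-ps4, -0.37 for Eif4ebp2, -0.083 for Eif4g1, 0.24 for Eif4g3 and 0.22 for Eif5b, each of the opposite sign to the fit of all libraries without the score. In eIF4, 1 gene was lower with no filter, with the Y-linked covariate and with the replicate block. The replicate block gave 33 members higher and 5 lower and 6465 genes. Same-numbered libraries correlated at 0.0115, -0.209 and 0.193, and not every library correlated best with its own number. These few correlations of deviations from group means cannot settle whether the numbers pair the libraries. Leaving out each library in turn, in fits with pooled spread, gave 3 to 7 members lower, 5 to 8 higher and 1 to 2 lower in eIF2, and 0 to 2 lower in eIF4. Members that did not pass changed sign in places. With library totals alone Eef1a1 was at -0.025, Eef2 at -0.037, Eif2ak3 at -0.11, Eif3a at -0.12, Eif3e at -0.034 and Eif4ebp2 at -0.13; with upper-quartile factors Eif2ak3 was at -0.030, Eif3a at -0.049 and Eif4ebp2 at -0.052. With the muscle and fat score Eif2ak3 was at -0.091, Eif2s3y at -0.41 and Eif3s6-ps1 at 0.17, and with the Y-linked covariate Eif2ak3 was at -0.00576. Over the fits without 1 library, the range was -0.053 to 0.24 for Eif2ak3, -0.00127 to 0.10 for Eif3a, -0.63 to 0.029 for Eif3s6-ps1, -0.12 to 0.039 for Eif4b and -0.045 to 0.13 for Eif4ebp2. The shallowest library held 19529970 gene counts, and genes of few counts, such as Eif4ebp3, are limited by depth.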

Other observations

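The spread between mice of one genotype was smaller in Tnip1-/- skin, for members and for genes in general; members were not matched to other genes by level. Over 67 members the median coefficient of variation of the CPM values was 5.61% in Tnip1-/- skin and 10.4% in Tnip1+/+ skin, and 45 of the 67 had the smaller value in Tnip1-/- skin. Over 16690 genes the medians were 12.5% in Tnip1-/- skin and 16.3% in Tnip1+/+ skin, and 60.6% had the smaller value in Tnip1-/- skin.

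The members whose mRNAs are known to start with a terminal oligopyrimidine tract, which mTOR signalling controls at translation, were listed after their values had been seen, so no test was made. Of these 10 genes 4 rose and 1 fell, with a median log2 fold change of 0.12. Of the other 51 translation factor members 31 rose and 4 fell, with a median of 0.48. Of all genes tested, 22.3% were called higher and 22.7% lower. Since the list was made after the values were seen, the contrast between these sets is described only. The listed genes include Eef1a1 and Eef2, the most abundant members per length, at 0.13 and 0.12.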
